A study of Mus musculus with 2 samples.

Results

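The Mir379 to Mir410 cluster is a run of miRNA genes on the plus strand of chromosome 12, in the imprinted Dlk1-Dio3 region and on the side of the noncoding RNA gene Mirg. Its members were taken by position alone: every counted gene that GENCODE annotates as a miRNA on the plus strand between 109709000 and 109748100 (mm10). This gave 34 of the 1973 counted miRNA genes, from Mir379 at 109709060 to the end of Mir3072 at 109747960, a span of 38.9 kb. Total RNA came from B6NCrl mouse embryos, whose limbs were taken at 13.5 days, listed as healthy, with male and female embryos pooled. No treatment or altered allele is named. There was 1 group with 2 biological replicates and no second condition. The tissue samples have identifiers of their own but carry the same donor label, and nothing says whether the embryos came from separate litters, so the spread given here is that between these 2 libraries.

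The Dlk1-Dio3 region is imprinted: its noncoding RNAs, among them Meg3, Rian, Mirg and the miRNA genes, are expressed from the maternally inherited chromosome, while Dlk1, Rtl1 and Dio3 are expressed from the paternal one. The miRNA hairpins are cut by Drosha and Dicer from long transcripts, and each hairpin can give a 5p and a 3p arm. A miRNA finds its targets mainly through its seed, bases 2 to 8 of the mature strand. The cluster is found in placental mammals and is best known from brain and placenta, and mice without it have trouble with metabolic adaptation around birth and show altered anxiety-related behavior.

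RefSeq gave 61 mature sequences (GRCm38.p6, the same build) for 33 of the 34 members, with no entry for Gm27379. The counts are per hairpin, so the arm that was read is not known and both are shown where both were found. The first set holds the 6 members with the highest counts, since they make up most of the cluster's reads. Capitals mark the seed.
mmu-miR-487b-5p: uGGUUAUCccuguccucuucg
mmu-miR-411-5p: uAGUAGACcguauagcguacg
mmu-miR-411-3p: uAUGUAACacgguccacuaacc
mmu-miR-369-5p: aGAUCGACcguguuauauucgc
mmu-miR-369-3p: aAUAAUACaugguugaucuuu
mmu-miR-381-5p: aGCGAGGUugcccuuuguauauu
mmu-miR-381-3p: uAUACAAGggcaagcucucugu
mmu-miR-379-5p: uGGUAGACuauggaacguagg
mmu-miR-379-3p: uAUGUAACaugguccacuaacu
mmu-miR-382-5p: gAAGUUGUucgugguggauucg
mmu-miR-382-3p: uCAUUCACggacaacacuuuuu

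The second set shows members related by sequence, beside the partners already printed. The 61 sequences carried 56 different seeds, and 5 seeds were found in 2 members each. These were the seed of miR-379-3p and miR-411-3p, that of miR-379-5p and miR-1193-5p, that of miR-494-5p and miR-410-5p, that of miR-453 and miR-496a-5p, and that of miR-1197-5p and miR-758-5p. In all, 9 members shared a seed with another member. RefSeq listed no partner arm for Mir376c, Mir487b, Mir539, Mir485 and Mir453. Seeds of arms not listed could not be compared, so these counts of shared seeds are minimums. The arms miR-300-3p and miR-543-3p are shown for near matches that fall inside the seed, and miR-376c-5p for its likeness to miR-376b-5p.
mmu-miR-1193-5p: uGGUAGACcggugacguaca
mmu-miR-494-5p: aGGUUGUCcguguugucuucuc
mmu-miR-410-5p: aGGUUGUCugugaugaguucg
mmu-miR-453: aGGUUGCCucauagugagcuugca
mmu-miR-496a-5p: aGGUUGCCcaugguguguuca
mmu-miR-1197-5p: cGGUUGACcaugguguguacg
mmu-miR-758-5p: uGGUUGACcagagagcacacg
mmu-miR-300-3p: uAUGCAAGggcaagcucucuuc
mmu-miR-543-3p: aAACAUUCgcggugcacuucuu
mmu-miR-495-3p: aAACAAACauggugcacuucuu
mmu-miR-376c-5p: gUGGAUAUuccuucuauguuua
mmu-miR-376b-5p: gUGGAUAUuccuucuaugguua

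Positions in these comparisons are counted from 1 at the 5′ end, with the base of the first-named miRNA written first. Between miR-379-3p and miR-411-3p only U10C and U22C differed over 22 bases, both outside the seed. Between miR-300-3p and miR-381-3p there were 3 differences over 22 bases, G4A, U21G and C22U, and G4A gives them different seeds. From miR-543-3p to miR-495-3p the differences were U6A, U7A, G9A and C10U, so that pair also has different seeds in spite of identical 3′ ends. From miR-376c-5p to miR-376b-5p the only difference was U19G. Mir376b has no row of its own in the tables, so no level can be set beside that of Mir376c. Outside the cluster, 10 of the 61 sequences shared a seed with another RefSeq mouse miRNA. Among these pairs were miR-329-3p with miR-362-3p and miR-410-3p with miR-344d-3p.

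The cluster held 314525 of 5927321 sense counts in replicate 1 and 323892 of 6003632 in replicate 2. Its share was 5.31% in replicate 1 (95% exact Clopper-Pearson interval 5.29 to 5.32) and 5.40% in replicate 2 (5.38 to 5.41), a mean of 5.35% ± 0.063 (SD, n = 2). Intervals cover counting error only, as PCR reads without molecular identifiers are not independent molecules. Detection required 10 or more sense counts in both libraries. By that rule 31 of the 34 members (91.2%) were detected, against 372 of all 1973 counted genes (18.9%). Of those 1973 genes, 1259 had 0 counts in both libraries. Among the comparison sets described below, all 6 Mir17 genes and all 5 Mir322 genes were detected. So were 14 of 19 proximal genes and 10 of 107 Sfmbt2 genes. In replicates 1 and 2 the Mir17 set held 5.491% and 4.598% of sense counts. The Mir322 set held 7.7% and 8.492%, and the Sfmbt2 set 0.497% and 0.4725%. No member had a single antisense count in either library.

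The unit of level is CPM, a gene's sense counts per 1000000 sense counts of the library in miRNA genes. Mir487b (ENSMUSG00000076219) was the most abundant member, with 13161 CPM in replicate 1 and 12761 in replicate 2. It was the 19th of all counted miRNA genes by mean level. Mir411 (ENSMUSG00000065477) followed with 9432 and 10681 CPM. Its range did not overlap that of Mir487b. Mir369 (ENSMUSG00000065561), whose 3p arm was studied as a regulator of cytokine mRNA translation, reached 5859 and 5611 CPM. It lay below Mir411 and above the next member in both libraries.

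Mir381, Mir379 and Mir382 formed a group in which the place of Mir379 was not resolved. Mir381 lay at 4575 and 4684 CPM and Mir379 at 4147 and 4729 CPM, so Mir381 was higher in replicate 1 and Mir379 in replicate 2. Mir382 lay at 4079 and 4226 CPM, below Mir381 and Mir379 in both libraries. Its range overlapped that of Mir379 but not that of Mir381. Below them came Mir541 at 2689 and 2114 CPM and Mir134 at 1731 and 1794 CPM. Mir134 is known from neurons, where it limits dendritic spine size through Limk1. Mir154, the namesake of the mir-154 family to which many members belong, lay at 1597 and 1668 CPM. Mir1193 lay at 1303 and 1224 CPM. Between each of Mir541, Mir134, Mir154 and Mir1193 and the next in this order the ranges of the 2 libraries did not overlap.

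**Figure D1:**
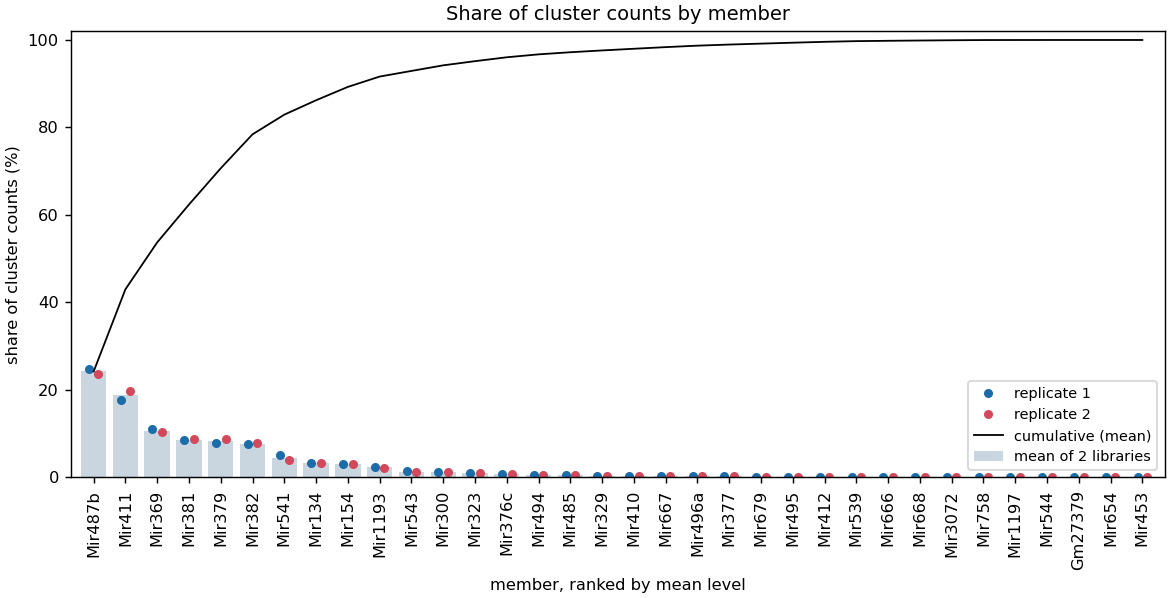
Share of the cluster's sense counts (%, linear axis) for each of the 34 members ranked by mean level. Bars show the mean of the 2 libraries, points each library and the line the running sum, which passes 50% at the third member and 90% at the 10th.

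Counts were concentrated in a few hairpins. Mir487b alone held 24.8% of the cluster's counts in replicate 1 and 23.7% in replicate 2. The 5 most abundant members, Mir487b, Mir411, Mir369, Mir381 and Mir379, held 70.1% and 71.3%. It took 3 members to reach 50% of the counts and 10 to reach 90%, as the plot of shares by member shows. These shares are of the 34 counted members. They leave out the plus-strand reads at Mir409, Mir376a, Mir299a and Mir380, which equal 28.8% and 29.4% of the cluster's sense counts. Mean levels of at least 1000 CPM were seen in 10 members, levels from 100 to under 1000 CPM in 14, and levels under 100 CPM in 10. Mir487b lay 60.9-fold above the median member and 4681-fold above Mir544, the lowest detected member. Of all counted miRNA genes, the first 100 by mean level included 10 members and the first 200 included 25.

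The middle of the order was made up of members whose levels differed little from their neighbors. Mir543 (738 and 638 CPM) and Mir300 (682 and 685 CPM) changed places between the libraries. Mir323 lay at 486 and 536 CPM, Mir376c at 476 and 472 CPM and Mir494 at 359.5 and 357.5 CPM, with no overlap among these. Mir485, known to restrain synaptic proteins such as Sv2a, lay at 246.5 and 271.5 CPM. Mir329, Mir410, Mir667 and Mir496a ranged together from 171 to 241 CPM, and each overlapped the next. Mir377 lay at 139 and 129 CPM. Mir679, Mir495 and Mir412 overlapped from 101 to 118 CPM. Over the whole order, the ranges of 12 of the 33 pairs of next members overlapped and those of 21 did not. The last of the 12 is the pair of Mir654 and Mir453, both at 0.

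At the lower end, Mir539 lay at 80.8 and 86.3 CPM, Mir666 at 39.8 and 43.8 CPM and Mir668 at 40.5 and 28.3 CPM. Mir3072, the last member along the locus, lay at 30.87 and 30.98 CPM. Mir758 lay at 26.32 and 24.15 CPM. Mir1197 had 42 and 17 counts, and Mir544 had 19 and 14. The 3 members that were not detected were Gm27379, with 5 and 2 counts, and Mir654 and Mir453, with 0 counts in both libraries. A count of 0 allows up to 3 counts, which is 0.506 CPM in replicate 1 and 0.4997 CPM in replicate 2.

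**Figure D2:**
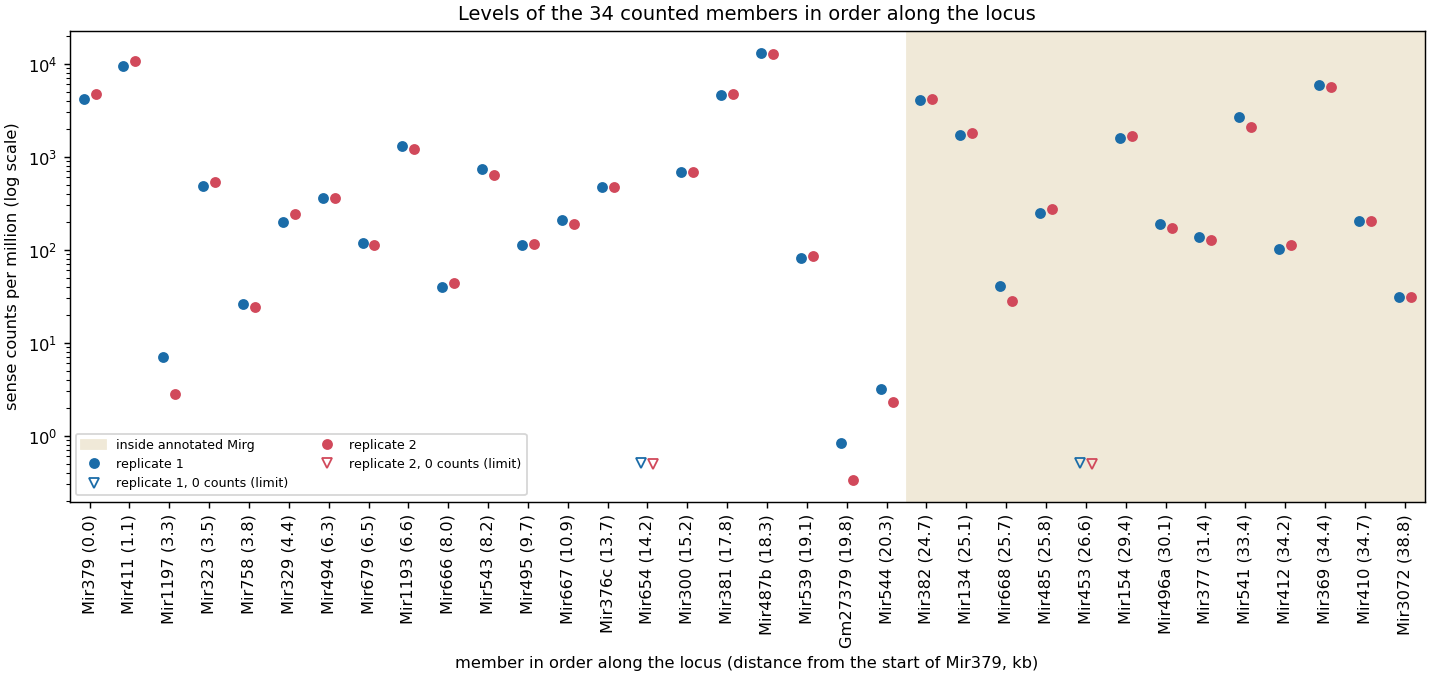
Levels in CPM (log axis) of the 34 counted members in their order along the locus, with the distance from the start of Mir379 in kb in brackets and 1 point per library. Shading marks the 13 members inside the annotated Mirg gene, and open triangles mark 0 counts at their limit. High and low members are mixed along the whole locus.

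Levels followed no gradient along the locus. Spearman's rho between position and mean log2(CPM + 1) was -0.08 over the 34 members and -0.04 over the 31 detected ones. These members share libraries and transcripts, so the values are descriptions with no test. The plot of levels in order along the locus shows abundant members near both ends and in the middle: Mir379 and Mir411 come first, Mir381 and Mir487b follow 17.8 and 18.3 kb on, and Mir369 lies 34.4 kb from the start. Mirg is annotated from 109729764 to 109749460, and 13 members lie inside it. Of those, 9 overlap an exon of an annotated Mirg transcript and 4 (Mir453, Mir154, Mir496a and Mir541) do not. The 21 members upstream of the annotated start held 68.1% of the cluster's counts in replicate 1 and 69.7% in replicate 2, and the 13 inside held 31.9% and 30.3%. Median levels were 220 CPM upstream and 206 CPM inside. All these values along the locus cover counted members only. They leave out plus-strand reads at Mir409, which lies inside Mirg, and at Mir299a, Mir380 and Mir376a, which lie upstream of it.

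Counted members next to each other in order often differed widely in level. Some of these pairs skip genes not counted under their own names. Mir299a and Mir380 lie between Mir411 and Mir1197, Mir376b and Mir376a between Mir654 and Mir300, and Mir409 between Mir541 and Mir412. The gap between neighboring members was 644 bases at the median, from 20 bases between Mir679 and Mir1193 to 4368 between Mir544 and Mir382. The median absolute difference of log2(CPM + 1) between next neighbors was 4.01 over 33 pairs, and 3.12 over the 30 pairs left when only detected members were kept. Outside the cluster, pairs of detected neighbors within 10 kb on the same strand had a median of 2.73 over 71 pairs, and that difference was not tested. The medians are built differently: detected members were paired across removed ones, while the other pairs were adjacent before any gene was removed. In 14 of the 29 pairs for which a ratio could be formed, mean CPM differed by at least 10-fold.

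Mir412 and Mir369 show such a contrast over a gap of 49 bases. Mir412 (109743289 to 109743368, overlapping an exon of Mirg) lay at 101 and 114 CPM. Mir369 (109743418 to 109743496, also overlapping an exon) was 57.8-fold higher in replicate 1 and 49.3-fold higher in replicate 2. Mir487b (109727333 to 109727414) was 163-fold and 148-fold above Mir539, which starts 714 bases beyond it. Mir1193 was 11.1-fold and 10.9-fold above Mir679. By contrast, Mir411 (109710175 to 109710256) and Mir379 (109709060 to 109709125), 1049 bases apart, differed only 2.27-fold and 2.26-fold. The hairpins of the first pair and of Mir411 are printed 5′ to 3′ from RefSeq, with both annotated arms in capitals, to show how alike their layouts are.
Mir412: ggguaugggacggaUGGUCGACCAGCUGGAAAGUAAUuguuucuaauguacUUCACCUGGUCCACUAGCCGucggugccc
Mir369: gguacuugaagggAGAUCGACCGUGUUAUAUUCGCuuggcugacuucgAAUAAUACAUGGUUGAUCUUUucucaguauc
Mir411: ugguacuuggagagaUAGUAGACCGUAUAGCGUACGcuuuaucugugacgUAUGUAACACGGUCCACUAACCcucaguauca

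**Figure D3:**
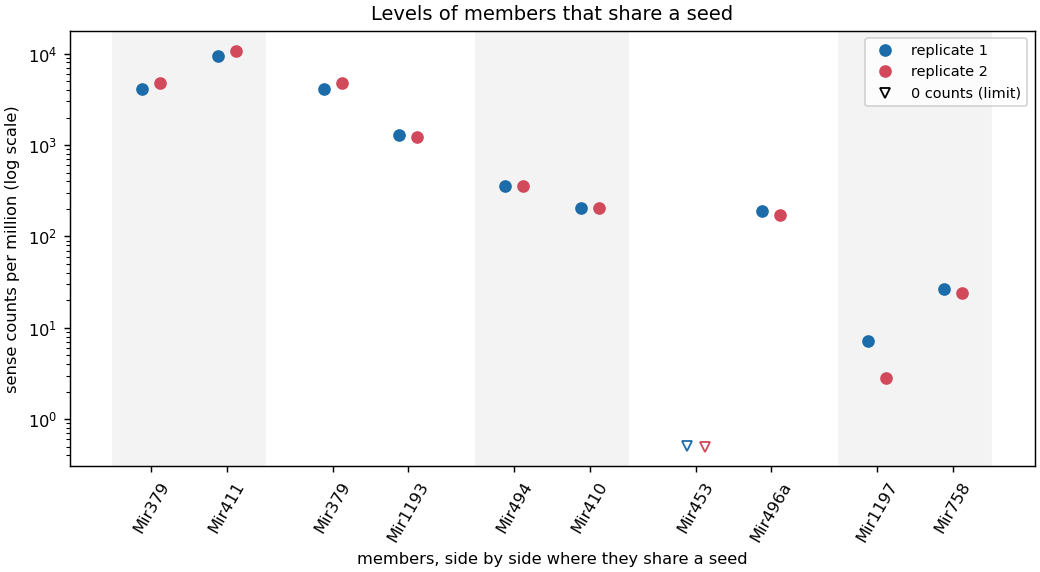
Levels in CPM (log axis) of the members that share a seed, side by side, with 1 point per library and open triangles for 0 counts at their limit. Mir379 stands in 2 pairs because each of its arms shares a seed with another member, and the pairs range from Mir379 with Mir411 at the top to Mir1197 with Mir758 at the bottom.

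Members with a common seed differed in level, as the plot of seed pairs shows. Mir379 and Mir411, which share the seed of their 3p arms, summed to 13579 CPM in replicate 1 and 15410 in replicate 2. Mir379 and Mir1193, which share the seed of their 5p arms, summed to 5450 and 5953 CPM, and Mir379 was 3.18-fold and 3.86-fold the higher. Sums cover both arms of each hairpin, so they are not levels of the shared seed itself. Mir494 and Mir410 lay closest together, with Mir494 1.75-fold and 1.73-fold higher and a sum of 564.5 and 563.7 CPM. Mir758 was 3.71-fold and 8.53-fold above Mir1197, which rested on 42 and 17 counts. In the last pair Mir496a lay at 190.0 and 171 CPM while Mir453 had 0 counts. Among near matches, Mir381 was 6.70-fold and 6.84-fold above Mir300, and Mir543 was 6.64-fold and 5.51-fold above Mir495.

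Multiply mapped reads are listed apart from the genes in these tables, so likeness to other genes bears on the levels. Of the 61 mature sequences of members, none was found whole in the hairpin of another annotated miRNA gene. The unlisted arms of Mir376c, Mir487b, Mir539, Mir485 and Mir453 could not be searched in this way. Only miR-376c-5p had 18 or more bases in a row there, 18 in the hairpin of Mir376b. Over whole hairpins, 4 members shared 18 or more bases in a row with another gene. These were Mir376c (31 with Mir376b), Mir411 and Mir758 (21 with each other) and Mir487b (20 with Mir376b). The level of Mir376c is therefore uncertain. Whether the 20 bases shared by Mir487b reach its unlisted arm was not checked, so its level may be affected too. Of all 1973 counted genes, 960 shared at least 18 bases. The share of the cluster was 3.76% when all genes sharing 18 or more bases were left out.

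**Figure D4:**
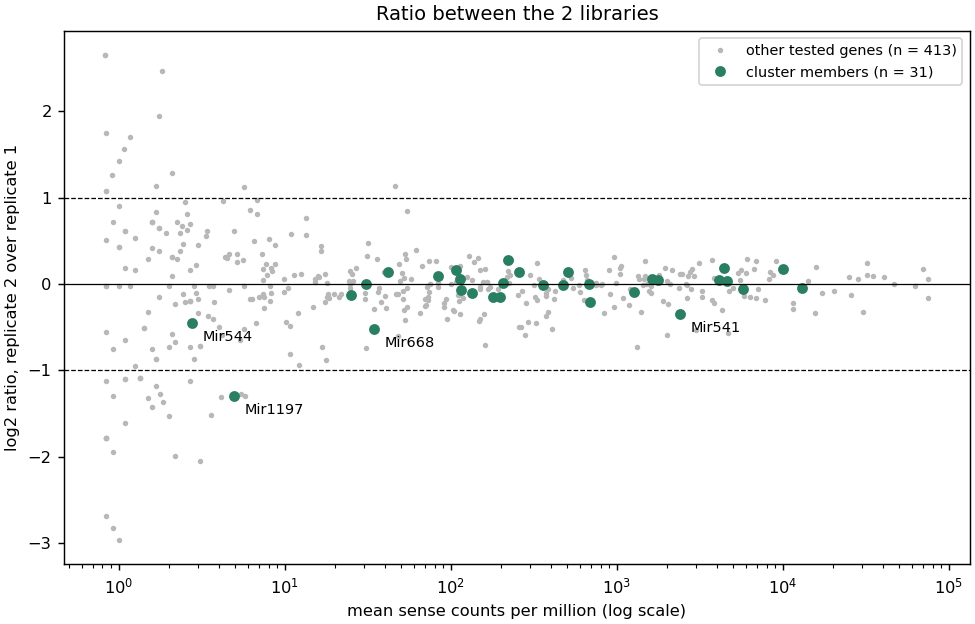
Log2 ratio of replicate 2 over replicate 1 (0.5 counts added) against mean CPM (log axis) for the 444 tested genes, among them 31 members. Dashed lines mark the minimum ratio of 1 in either direction, and Mir1197 is the member beyond them.

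The 2 libraries were compared gene by gene by exact binomial tests, two-sided, with p-values adjusted by Benjamini-Hochberg over the 444 genes that had 10 or more counts in sum. Such a test sets one library against the other and accounts for counting error alone. A call needed an adjusted p under 0.05 and an absolute log2 ratio of at least 1. Of 31 tested members, 1 was called (3.23%), against 3.38% of all 444 genes, so the members were called about as often as genes at large. The called member was Mir1197, lower in replicate 2 (2.83 CPM against 7.09 in replicate 1), a change of -1.30 on the log2 scale (exact binomial test, adjusted p = 0.0034). By adjusted p alone 18 of 31 members passed (58.1%), 9 in each direction, against 40.3% of all genes. The median count over both libraries was 3091 for tested members and 615.5 for all tested genes.

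Among members of at least 100 CPM the libraries lay close together. The median absolute log2 ratio was 0.08 over 24 members, against 0.125 over all 190 such genes (Mir541 the highest member at 0.35, against 0.73 over all). Mir541 was lower in replicate 2, with 15936 counts in replicate 1 and 12690 in replicate 2, and passed the adjusted p (3.84e-90, exact binomial test) but not the minimum ratio. Mir329 went the other way, with 1182 and 1448 counts and a log2 ratio of 0.27. Of the tested members 16 were higher in replicate 2 and 15 lower, and the median log2 ratio was 0.005, against -0.02 over all tested genes. The members printed first moved little: -0.05 for Mir487b, 0.18 for Mir411, -0.06 for Mir369, 0.03 for Mir381, 0.19 for Mir379 and 0.05 for Mir382. The plot of ratios between the libraries places Mir1197 and Mir544, both of low count, and Mir668 farthest down among the members.

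A proximal set for comparison was made of the counted miRNA genes on the plus strand that start within 170 kb before the cluster. There were 19, of which 14 were detected, and they include genes antisense to Rtl1. Minus-strand genes of the region, such as Mir3071, are not in the set. Mir136 was also looked for and is not among the 19. The set held 2.12% of sense counts in replicate 1 and 2.22% in replicate 2. Its most abundant genes were Mir127, a known repressor of Rtl1, at 8095 and 8412 CPM and Mir431 at 5727 and 6280 CPM. Mir434 lay at 1624 and 1605 CPM and Mir337 at 1422 and 1516 CPM. Cluster counts were 2.46-fold those of the proximal set, a log2 ratio of 1.32 in replicate 1 and 1.28 in replicate 2. Both sides cover counted genes only, so reads at genes not counted under their own names are left out. The mean log2 ratio was 1.30, and it was 0.47 when genes sharing 18 or more bases were left out of both sets. Compared by their median genes, the sets differed by 0.78 on the log2 scale. The most abundant gene held 38.1% and 37.9% of the counts of the proximal set, against 24.8% and 23.7% in the cluster. In the Mir17 cluster Mir17 held 61.8% and 59.1%, and in the X-linked Mir322 cluster Mir322 held 84.8% and 86.9%. The Mir17 set has 6 counted genes. The Mir322 set was made of 5, Mir322, Mir503, Mir351, Mir542 and Mir450b. It leaves out 2 counted genes, Mir450-1 (157 and 222 counts in replicates 1 and 2) and Mir450-2 (91 and 98). In the Sfmbt2 cluster, with 107 counted genes of which 10 were detected, Mir467e held 28.6% and 31.3%, nearer to the share of Mir487b. No test was made, since the smallest two-sided exact p that 2 libraries allow is 0.5.

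Markers of limb tissues were present. Summed CPM in replicates 1 and 2 were 93526 and 85152 for 2 chosen Hox cluster genes, Mir196b and Mir10b. Other Hox cluster genes had mean levels of 5824 CPM for Mir10a, 1573 for Mir615, 964.3 for Mir196a-2 and 21.7 for Mir196a-1. The 2 cartilage genes, Mir140 and Mir455, summed to 48689 and 48605 CPM. Skeletal muscle genes summed to 3817 and 4016 CPM, with 2 of 5 counted genes detected and Mir133a-2 at 0. Mir206 alone had a mean of 3841 CPM. Of these 5 muscle genes 3 have 22 or more hairpin bases in common with another gene, which can lower their counts. Neuronal markers, of interest because the cluster is best known from brain, summed to 404 and 421 CPM with 4 of 8 counted genes detected. Mir9-2 and the 3 Mir124a genes were at 0. Of the 8 counted genes 7 have 22 or more hairpin bases in common with another gene. Other lists summed to 30654 and 30970 CPM for mesenchyme, 20227 and 23584 for epithelium and 20830 and 19637 for endothelium. Sums were 443 and 445 CPM for blood and 66.8 and 80.6 for liver. The part of any cell type in the level of the cluster was not tested. In bulk tissue, fewer cells of a type and less RNA per cell cannot be told apart.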

How the data were processed

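The authors deposited, for each of 2 microRNA-seq libraries of limb, a table of whole-number read counts per miRNA gene in 3 columns without a header, after 4 lines for reads in no gene. Columns were read as either strand, sense and antisense, from their layout: the first equals the sum of the others in every gene. The labels and the deposited text name mm10, and the latter also GENCODE M4. The aligner and the counter: not given in the sources used here. Depth was 12407140 and 12657170 reads, of which 5927321 and 6003632 were sense counts in genes.

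Members were found with GENCODE M21 (GRCm38), which matched 1894 of 1973 identifiers. Members and lists were chosen with earlier results of these data known. Named with full values were the 10 members of highest level, members that share a seed, those with extreme ratios, called or not detected, and the 4 highest proximal genes. Near matches were named after their sequences were seen. CPM used sense totals. Libraries were compared with exact binomial tests across all genes (SciPy 1.17.1, Python 3.11.15). The test was also run on simulated counts that held counting error alone. That run cannot show how the test treats other spread between libraries. Scaling alternatives came from edgeR 4.0.16 and DESeq2 1.42.0 in R 4.3.3. Hairpins from GENCODE were folded with ViennaRNA 2.7.2. Shared bases were searched in the same orientation among annotated miRNA genes. The labels give 1 group, so no conditions were compared. Alternatives changed count minimums, pseudocounts, strand, denominators, scaling, genes with shared sequence and libraries.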

Additional observations from a re-analysis of the deposited data

Results flagged for a closer look

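Plus-strand reads lie at 4 annotated miRNA genes of the cluster that the tables do not count under their own names. They appear as antisense counts of the minus-strand gene opposite, a column that no level above uses, and they far exceed the 3 counts that a count of 0 allows. At Mir409, opposite Gm24321, there were 44698 such counts in replicate 1 and 51519 in replicate 2. At Mir376a, opposite Gm25252, there were 22616 and 23069. At Mir299a, opposite Mir299b, there were 12322 and 11877. At Mir380, opposite Gm25750, there were 10863 and 8856.

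By mean level, scaled like the members, Mir409 would stand at 8061 ± 736 CPM (SD, n = 2), in place 3 between Mir411 and Mir369. Mir376a would stand at place 7, Mir299a at place 8 and Mir380 at place 9 by mean level if each is set alone among the 34 members. The place of Mir380 is not resolved: at 1833 CPM it lay above Mir134 (1731 CPM) in replicate 1, and at 1475 CPM it lay below Mir154 (1668 CPM) in replicate 2. Together these reads equal 28.8% and 29.4% of the cluster's sense counts. With them added to cluster and total, the share of the cluster would be 6.73% and 6.87%. They make up 46.6% and 47.1% of all antisense counts in the tables. The minus-strand genes had few sense counts, 24 and 30 for Mir299b and 0 for the other 3. Mir376b, the fifth uncounted plus-strand gene, has no counted gene opposite it.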

How the results depend on the processing

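Of 48 alternative values 33 stayed near the main value (within 1 SD, or within 1.5 times for counts of genes) and 15 moved, and the sign stayed the same in each that moved. The cluster share of 5.35% became 4.90% of uniquely mapped reads, 2.55% of all reads and 5.18% with both strands. The both-strand total includes, as antisense counts, the plus-strand reads at Mir409, Mir376a, Mir299a and Mir380, which the cluster's own counts leave out. Leaving out genes with a shared stretch gave 3.76% at a minimum of 18 bases and 5.45% at 22. Mir487b and Mir411 drop out at 18, and the share of the most abundant member, then Mir369, was 19.1%. The position correlation, near 0 throughout, was -0.041 for detected members, -0.033 without members sharing 18 or more bases, and -0.0672 to -0.0666 with either library left out. The neighbor difference fell to 3.12 for detected members. Calls rose from 1 to 18 without the minimum ratio. The log2 ratio over the proximal set was 0.78 between medians, 0.47 at the minimum of 18 shared bases and 1.59 when the most abundant gene of each set was dropped. With either library left out, the cluster share was 5.31% to 5.40%, detected members stayed at 31, the first member held 23.7% to 24.8% and the first 5 held 70.1% to 71.3%. The neighbor difference was 3.84 to 4.16 and the proximal log2 ratio 1.28 to 1.32. The median log2 ratio between libraries crossed 0 only when the member under 10 counts was added, at -0.002. Depth limits what can be said of Mir1197, Mir544 and Gm27379, and of Mir654 and Mir453, for which only a limit is known.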

Other observations

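Short stretches of letters recur among the hairpins. They were picked after the hairpins of the cluster had been read, so the contrast with other hairpins is no independent evidence. The letters UACUUG, near the 5′ base of the Mir411 and Mir369 hairpins printed above, were found in 10 of 34 members (29.4%) and in 1.89% of 2168 other annotated miRNA hairpins. These were Mir411, Mir323, Mir494, Mir300, Mir487b, Mir539, Mir382, Mir453, Mir369 and Mir410. The letters CAGUAUC were found in 5 members, Mir411, Mir758, Mir329, Mir487b and Mir369, and in 0.461% of other hairpins. The letters GCUUUAU were found in 6 members, Mir411, Mir1197, Mir543, Mir154, Mir377 and Mir410, and in 0.369% of others. The letters GACGAA were found in 5 members, Mir543, Mir495, Mir382, Mir154 and Mir410, and in 0.185% of others. Only the strand of the hairpin was searched, and windows differ in length.

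Hairpin features bore little relation to level. Hairpins ran from 63 to 123 bases, GC content from 29.1% to 72.3%, and the folding energy per base from -0.56 to -0.28 kcal/mol. Spearman's rho with mean log2(CPM + 1) over the 34 members was -0.18 for length, -0.33 for GC content and -0.10 for folding energy per base. Over the 31 detected members it was -0.05, -0.28 and 0.11. Annotated hairpins include flanks of unequal length, which enters all 3 features. Mir3072, the most GC-rich member at 72.3%, lay at 30.9 CPM.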
